A study of Mus musculus with 30 samples.

Results

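The myostatin and insulin-like growth factor (IGF) axis was described from 10 genes, Mstn, Inhba, Fst, Acvr2b, Igf1, Igf2, Igfbp5, Igf1r, Irs1 and Irs2, taken by name from the 56748 Ensembl genes counted in mouse quadriceps. All 10 passed the filter on low counts that left 17518 genes for testing. RNA was sequenced from 30 mice, all of the FVB/N strain. There were 5 untreated WT mice and 8 untreated HSA-LR20b mice (NT). An age of 8 weeks is listed for all mice, WT and NT included, and treated mice were about that age when injected through the tail vein. HSA-LR20b mice are homozygous for a human skeletal actin transgene with a long CTG repeat, so the toxic repeat RNA is made in muscle, in a host that keeps its own genes. The other mice carried the same transgene and received pacDNA-L9, a bottlebrush polymer conjugated to the antisense oligonucleotide L9 against the CUG repeat, dosed by the weight of its oligonucleotide. Of these, 4 mice received 5.3 mg/kg, 3 received 21.2 mg/kg and 3 received 42.4 mg/kg. Controls were unconjugated L9 at 5.3 mg/kg (free L9, n = 3), a conjugate with a scrambled sequence at 5.3 mg/kg (pacDNA-Scr, n = 2) and 40 nanomoles of the polymer without an oligonucleotide (Brush, n = 2). The higher doses of pacDNA-L9 were reached with more injections, so dose and number of injections cannot be told apart. Muscle was taken 2 weeks after the last injection.

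Libraries held 13605309 to 26956558 counts and came from 2 separately numbered sets. NT 7, NT 8, free L9 C, mouse C at 21.2 mg/kg and mice C and D at 5.3 mg/kg of pacDNA-L9 form the second set of 6, and 5 of these, all but free L9 C, list all 37 mitochondrial genes at 0. Within the first set of 24, 9 libraries carry a short column name made of the group and a running number, and they showed 14438 to 18634 genes at equal depth, against 18637 to 20350 in the other 15. All 3 mice at 42.4 mg/kg are among these 9, and all 3 are female, whereas 4 of the 8 NT mice are. All 8 muscle fibre markers were present in every library, with a summed level of 106240 to 197688 CPM (counts scaled to a common library size after TMM normalization). Hepatocyte markers, which would mark plasma or liver RNA, summed to at most 0.953 CPM.

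Myostatin, the product of Mstn, is secreted by muscle fibres and limits muscle mass. It binds the activin type IIB receptor encoded by Acvr2b and signals through SMAD2 and SMAD3. Activin A, a dimer of the Inhba product, uses the same receptors, and follistatin, encoded by Fst, captures both ligands. IGF-1 and IGF-2 act in the opposite sense through the IGF-1 receptor, the adaptors IRS-1 and IRS-2, PI3K and AKT, which restrain FOXO transcription factors and drive protein synthesis. IGFBP-5, a secreted IGF-binding protein of muscle, holds IGFs in the matrix and changes their access to the receptor.

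The levels per exonic length differed widely among the 10 genes. In WT, Igfbp5 stood first at 199 ± 56.7 CPM per kilobase of exon (SD, n = 5), and Mstn followed at 23.7 ± 6.60. Irs1 reached 7.45 ± 1.82 CPM per kilobase and Irs2 3.83 ± 0.633. The WT ranges of Igfbp5, Mstn, Irs1 and Irs2 did not overlap with that of the next gene in this order, except that Irs2 overlapped with Igf1. Below them came Igf1 (2.09 ± 0.832 CPM per kilobase), Fst (1.26 ± 0.298), Igf1r (0.785 ± 0.0900), Acvr2b (0.723 ± 0.314), Igf2 (0.251 ± 0.122) and Inhba (0.175 ± 0.0487). Neighbours in this lower stretch overlapped, apart from Fst and Igf1r. Igf2 rested on 0 to 51 counts per library and Inhba on 11 to 91, the fewest of the 10, whereas Igfbp5 had 2102 to 27788.

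**Figure D1:**
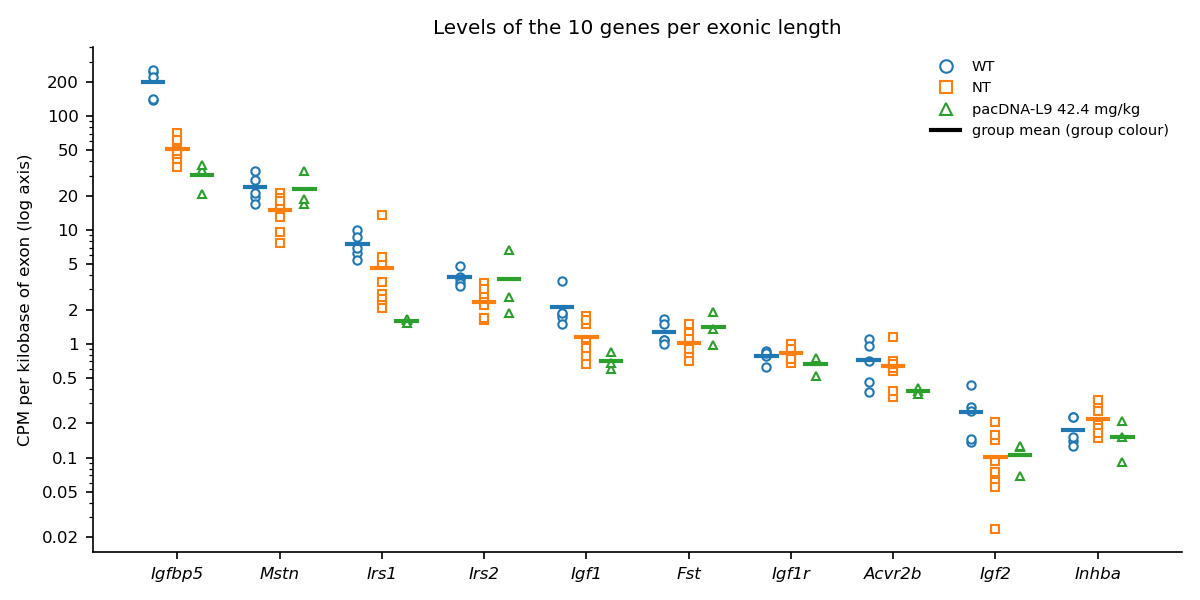
CPM per kilobase of exon (log axis) for the 10 genes in WT (circles, n = 5), NT (squares, n = 8) and pacDNA-L9 42.4 mg/kg (triangles, n = 3) quadriceps, with 1 point for each library and a bar for the group mean, ordered by the WT mean. Igfbp5 has the highest mean in all 3 groups, but at 42.4 mg/kg its points (20.7 to 37.4) overlap those of Mstn (16.9 to 33.0). The NT and 42.4 mg/kg points of Igfbp5 lie below all its WT points.

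Because L9 pairs with CUG repeats, the spliced transcripts of the 10 genes were searched on the sense strand for runs of at least 3 CTG units (CTGCTGCTG) in GENCODE's canonical transcripts on GRCm39. Such a run was found in 4 of the 10, compared with 17.7% of the 13799 protein-coding genes tested, whose transcripts have a median length of 3485 bases. Among the 10, only the transcripts of Fst (1887 bases) and Mstn (2705) are shorter than that, and the longest, of Igf1r, has 12466. The shares were not corrected for length. Each run was 9 bases long, far shorter than the repeat of the transgene. The runs are shown in capitals with their flanks, because these are the stretches of the axis that resemble the target of L9. The Fst run lies in coding sequence of exon 1 (chr13:114595075-114595083, minus strand), those of Acvr2b in coding sequence of exon 3 (chr9:119257075-119257083, plus strand) and in the 3′ UTR in exon 11 (chr9:119271038-119271046), that of Igf2 in the 3′ UTR in exon 4 (chr7:142206520-142206528, minus strand), and that of Igfbp5 in coding sequence of exon 1 (chr1:72913269-72913277, minus strand).
Fst: tctgcctcCTGCTGCTGctactctgcc
Acvr2b exon 3: gtgtacttCTGCTGCTGcgaaggcaac
Acvr2b exon 11: ttggggttCTGCTGCTGaattctgcac
Igf2: tctagtttCTGCTGCTGcttattggct
Igfbp5: tggtcctcCTGCTGCTGgccgcctatg

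No run of these letters was present in the canonical transcripts of Mstn, Igf1, Igf1r, Irs1, Irs2 or Inhba. A match describes the sequence and was not tested as a site of L9 binding. In the treated groups, none of the 4 genes with a run differed from NT at an adjusted p under 0.05. For Igfbp5 the 3 rising doses gave log2 fold changes against NT of 0.07 ± 0.24, -0.12 ± 0.27 and -0.74 ± 0.28 (SE). In the same order, Fst gave -0.19 ± 0.25, 0.02 ± 0.28 and 0.45 ± 0.27. Acvr2b gave -0.16 ± 0.40, 0.33 ± 0.43 and -0.72 ± 0.46, and Igf2 0.78 ± 0.63, 0.68 ± 0.69 and 0.05 ± 0.72.

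Across the comparisons, few of the 10 genes passed an adjusted p of 0.05 in edgeR's quasi-likelihood test over all 17518 genes. Between NT and WT, 1 of the 10 (Igfbp5, lower) was called, beside 4.97% of all genes tested (602 higher and 269 lower). A further 3 genes, Mstn, Igf1 and Igf2, had an unadjusted p under 0.05 only. Over all 17518 genes, 3771 had an unadjusted p under 0.05. The log2 fold change was below 0 for 8 of the 10, with a median of -0.67 against 0.03 over all genes. These p-values set each difference against the spread between the mice sampled, which the fit shares over all 8 groups. Igfbp5 was also the only one of the 10 whose NT and WT libraries did not overlap. The share of all genes without such overlap was not counted.

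Between pacDNA-L9 at 42.4 mg/kg and NT, 0 of the 10 were called, beside 2.57% of all genes, and the lowest adjusted p was 0.205. Unadjusted p-values were under 0.05 for 4 of the 10, namely Mstn (higher), Igf1r, Igfbp5 and Irs1 (lower), beside 2294 of the 17518 genes tested. DESeq2 called 1 of the 10, Irs1, beside 7.11% of the genes it tested. Irs1 was also the only gene of the 10 whose 42.4 mg/kg and NT libraries did not overlap. The median log2 fold change of the 10 was -0.42 against -0.06 over all genes. Between 42.4 mg/kg and WT, 3 of the 10 (Igfbp5, Irs1 and Igf1, all lower) were called, beside 7.9% of all genes (894 higher and 490 lower). In 4 of the 10, these 3 and Igf2, the libraries did not overlap. How many of all genes lacked overlap was not counted for either comparison at 42.4 mg/kg, so these overlap counts have no background. The comparisons of 42.4 mg/kg with NT and of NT with WT share the NT libraries, so their values are given side by side and were not compared with each other.

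In each of the 5 other comparisons with NT, 0 of the 10 genes were called. The background was 0% of genes at 5.3 mg/kg (250 genes at an unadjusted p under 0.05, and 1 called by DESeq2), 0.0514% at 21.2 mg/kg and 0.126% for free L9. It was 0% for Brush (217 genes at an unadjusted p under 0.05, and 83 called by DESeq2) and 0% for pacDNA-Scr (182 and 311). DESeq2 called none of the 10 in these 5 comparisons. Unadjusted p-values were under 0.05 for Irs2 at 5.3 mg/kg and for pacDNA-Scr, and for Inhba with free L9. With free L9, 1641 of all genes had an unadjusted p under 0.05.

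**Figure D2:**
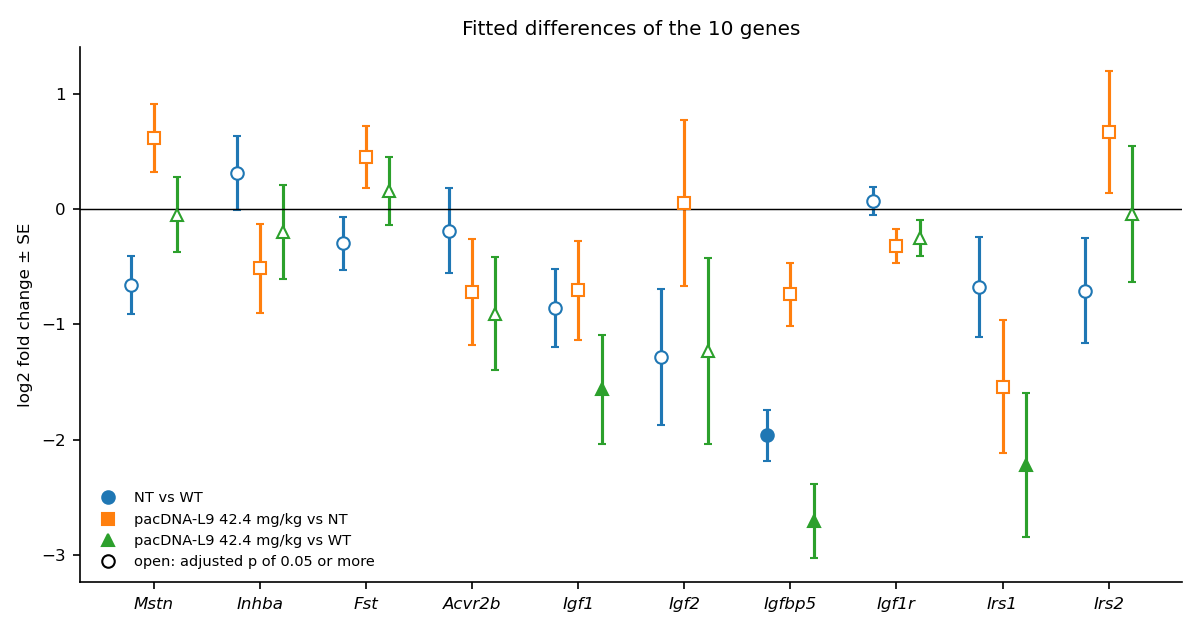
Fitted log2 fold changes with their standard errors for the 10 genes in NT vs WT (circles), pacDNA-L9 42.4 mg/kg vs NT (squares) and pacDNA-L9 42.4 mg/kg vs WT (triangles). Filled symbols, those with an adjusted p under 0.05, are Igfbp5 in both comparisons with WT and Igf1 and Irs1 at 42.4 mg/kg vs WT.

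Mstn (ENSMUSG00000026100, chr1:53100799-53107240, plus strand) was higher in WT than in most NT mice, but the ranges overlapped. The WT libraries read 53.2, 74.5, 89.7, 57.6 and 45.4 CPM, and NT ran from 20.7 over a median of 42.2 to 56.7. At 42.4 mg/kg the 3 mice read 45.6, 89.2 and 51.1 CPM. Thus all 3 lay within the WT range. Of these, 2 also lay within the NT range, and mouse B stood apart at the level of the highest WT mouse. NT stood at -0.66 ± 0.25 against WT on the fitted log2 scale (adjusted p = 0.145). At 42.4 mg/kg the value was -0.05 ± 0.33 against WT (adjusted p = 0.999) and 0.61 ± 0.29 against NT (adjusted p = 0.375).

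The Mstn difference of 42.4 mg/kg from NT fell to 0.26 on the log2 scale (adjusted p = 0.878) without mouse B. In the first set with the style of library name as a covariate, where 0.695% of genes were called at 42.4 mg/kg against NT and 5.75% between NT and WT, Mstn was called in both comparisons. Its log2 fold change was then -0.77 for NT against WT (adjusted p = 0.0329) and 1.41 for 42.4 mg/kg against NT (adjusted p = 0.0341). That estimate at 42.4 mg/kg rests on the 1 short-named library each of WT, NT, Brush and pacDNA-Scr. All 3 libraries at this dose and both first-set free L9 libraries are short-named, so they do not inform the effect of name style. The 2 lowest Mstn values of the series, in NT 6 at 20.7 CPM and free L9 A at 21.5 CPM, are in short-named libraries too. Of these, only NT 6 informs the effect of name style.

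In the remaining groups Mstn stayed within 28.2 to 62.2 CPM apart from free L9 A. At 5.3 mg/kg of pacDNA-L9 it read 35.7, 28.2, 37.4 and 42.9 CPM, and at 21.2 mg/kg 31.7, 28.4 and 52.6. Free L9 gave 21.5, 40.4 and 41.0 CPM, Brush 62.2 and 32.4, and pacDNA-Scr 56.9 and 30.4. Both doses overlapped NT. The fitted log2 fold changes against NT lay between -0.24 (free L9) and 0.22 (Brush) in these 5 groups.

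Inhba, the activin A subunit gene, was scarce everywhere. Its level was 1.24 ± 0.347 CPM in WT (SD, n = 5), 1.55 ± 0.478 in NT (n = 8) and 1.08 ± 0.426 at 42.4 mg/kg (n = 3). The highest library was free L9 B at 5.11 CPM, beside 1.31 and 2.77 CPM in the other free L9 mice. Free L9 B, which was also the highest library for Fst and Igf1 and the only one at 0 for Igf2, stood apart with 14438 genes at equal depth, the next lowest being 17479, and with 22.3% of its counts in mitochondrial genes, the next highest being 13.3%. The part of this in its values was not tested. Free L9 gave a log2 fold change against NT of 0.98 ± 0.36 (adjusted p = 0.395), and 0.36 without that mouse.

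Fst, whose product binds myostatin and activins, showed no called difference. It read 5.09, 5.06, 7.82, 4.70 and 7.09 CPM in WT, 3.35 to 7.01 in NT with a median of 4.72, and 4.60, 8.92 and 6.39 at 42.4 mg/kg. Here too the highest 42.4 mg/kg mouse was B, and the highest of the series was free L9 B at 10.3 CPM. NT stood at -0.30 ± 0.23 against WT on the log2 scale. At 42.4 mg/kg the value against NT was 0.45 ± 0.27, and 0.18 without mouse B.

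Acvr2b, the receptor gene, varied more within groups than between them. WT libraries ran from 4.21 to 12.4 CPM and NT libraries from 3.79 to 12.9. The 3 mice at 42.4 mg/kg lay close together at 4.31, 4.07 and 4.53 CPM, inside the range of NT. The log2 fold change at this dose was -0.72 ± 0.46 against NT (adjusted p = 0.469). An opposite-strand noncoding gene shares 13.1% of the exonic bases of Acvr2b, and the counting options, strand included, are not given in the sources used here.

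**Figure D3:**
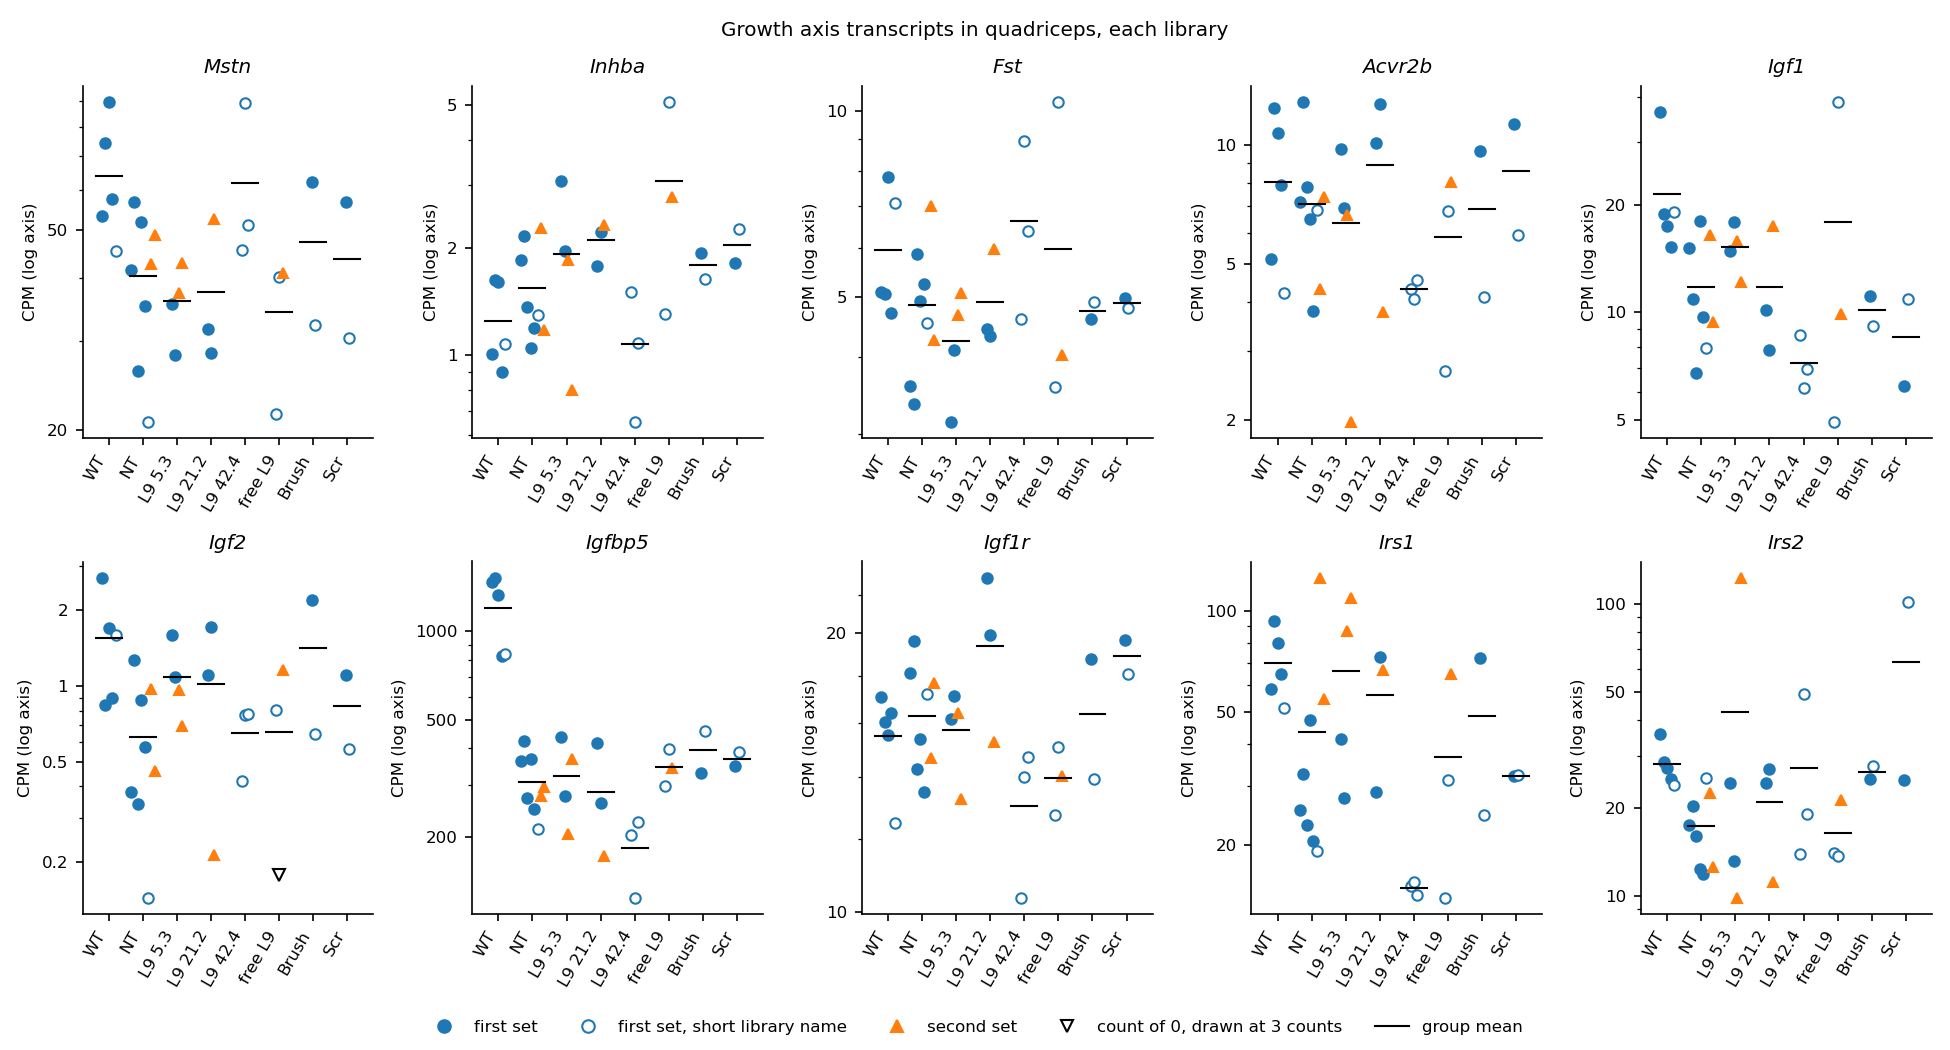
CPM (log axis) of the 10 genes in each of the 30 libraries by group, with a bar for the group mean. Filled circles are first-set libraries, open circles first-set libraries with a short name, triangles second-set libraries, and the open triangle pointing down a count of 0 drawn at 3 counts. WT stands clear of all other groups for Igfbp5, and the 3 libraries at 42.4 mg/kg lie together at 14.2 to 15.5 for Irs1.

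Igfbp5 (ENSMUSG00000026185, chr1:72897091-72914043, minus strand) gave the clearest difference of the axis. The WT libraries read 1473, 1524, 1328, 827 and 839.9 CPM, and the NT libraries ran from 214 over a median of 286 to 422. The highest NT mouse therefore lay below the lowest WT mouse. Igfbp5 was 3.90-fold lower in NT, a log2 fold change of -1.96 ± 0.22 (adjusted p = 1.44e-06), and it stayed between -2.07 and -1.84 and called in all 23 alternatives run for this comparison.

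No treated group brought Igfbp5 into the WT range. With pacDNA-L9 it read 437, 276, 204 and 369 CPM after 5.3 mg/kg, 418, 259.8 and 172 after 21.2 mg/kg, and 203, 124 and 224 after 42.4 mg/kg. Free L9 gave 298, 398 and 343 CPM, Brush 331 and 459, and pacDNA-Scr 348 and 388. Against WT, Igfbp5 was 6.52-fold lower at 42.4 mg/kg, a log2 fold change of -2.70 ± 0.32 (adjusted p = 3.05e-06). Against NT the value at that dose was -0.74 ± 0.28 (adjusted p = 0.205), with 2 of the 3 mice below the lowest NT mouse.

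In bulk muscle, fewer cells of a type and less RNA per cell cannot be told apart. Markers of fibroblasts and fibro-adipogenic progenitors, 6 of 6 of which were present, summed to 714 to 3314 CPM in WT, 579 to 1519 in NT and 747 to 1002 at 42.4 mg/kg, so they did not separate WT from NT as Igfbp5 did. Schwann cell markers, 3 of 3 present, summed to 60.1 to 179.8 CPM in WT and 28.5 to 69.4 in NT. Satellite cell markers, 3 of 3 present, summed to 20.4 to 24.8 CPM in WT and 19.5 to 32.5 in NT. The part of such cells in the Igfbp5 difference was not tested.

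Igf1 (ENSMUSG00000020053, chr10:87693642-87772904, plus strand) was highest on average in WT and lowest at 42.4 mg/kg. WT libraries read 36.4, 18.9, 17.5, 15.2 and 19.1 CPM, NT ran from 6.77 over a median of 10.3 to 18.0, and 42.4 mg/kg gave 8.63, 6.14 and 6.94. The WT and NT ranges overlapped between 15.2 and 18.0 CPM, whereas the 42.4 mg/kg mice all lay below WT. NT stood at -0.86 ± 0.34 against WT on the log2 scale (adjusted p = 0.163). The 42.4 mg/kg mice stood at -0.71 ± 0.43 against NT (adjusted p = 0.442) and at -1.56 ± 0.47, 2.96-fold lower, against WT (adjusted p = 0.0388).

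The Igf1 call at 42.4 mg/kg against WT held in 3 of 8 fits that left out 1 mouse, and it ended without WT 1 (log2 fold change -1.29, adjusted p = 0.102), WT 2 or any of the mice at 42.4 mg/kg. It also ended without the filter on low counts (adjusted p = 0.0774) and with the style of library name as a covariate in the first set (adjusted p = 0.142). WT 1, the highest WT library for Igf1, had the highest sum of fibroblast markers of the series, 3314 CPM. The other high Igf1 value, 38.8 CPM in free L9 B, stood beside 4.93 and 9.93 CPM in the other free L9 mice. In free L9 B the fibroblast markers summed to 1596 CPM, the adipocyte markers (4 of 4 present) to 347 CPM and the muscle fibre markers to 106240 CPM, the lowest of the 30 libraries. Macrophage markers, 6 of 6 present, summed to 208 to 304 CPM at 42.4 mg/kg, against 53.1 to 99.1 in NT and 46.7 to 78.3 in WT. The sums were 115 to 157 CPM at 5.3 mg/kg and 101 to 237 at 21.2 mg/kg. For Brush they were 161 to 170 CPM, for pacDNA-Scr 91.2 to 133 and for free L9 51.3 to 77.3. The part of these cells in the Igf1 values was not tested.

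At the lower doses Igf1 stayed near NT. It read 14.9, 17.9, 15.8 and 12.2 CPM at 5.3 mg/kg, and 10.2, 7.87 and 17.4 at 21.2 mg/kg. Brush gave 11.1 and 9.17 CPM and pacDNA-Scr 6.21 and 10.9, so a value as low as those at 42.4 mg/kg also occurred in a control mouse. None of these groups differed from NT beyond the spread.

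Igf2, which is mainly a fetal growth factor, was at the edge of detection. It measured 2.70, 0.843, 1.71, 0.900 and 1.59 CPM in WT, 0.144 to 1.27 in NT with a median of 0.517, and 0.422, 0.768 and 0.775 at 42.4 mg/kg. NT gave a log2 fold change against WT of -1.29 ± 0.59 (adjusted p = 0.221). Free L9 B had 0 counts of Igf2, which allows up to 0.179 CPM, and this limit covers counting error only. A read-through gene on the same strand, Gm49394, shares 58.4% of the exonic bases of Igf2, so the count depends on how shared reads were assigned.

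Igf1r, the receptor gene, was the steadiest of the 10, with a 2.22-fold span between its lowest and highest library. It measured 15.5 ± 1.78 CPM in WT (SD, n = 5), 16.3 ± 2.16 in NT (n = 8) and 13.0 ± 2.33 at 42.4 mg/kg (n = 3). The difference of NT from WT was 0.07 ± 0.12 on the log2 scale, and that of 42.4 mg/kg from NT was -0.32 ± 0.15 (adjusted p = 0.351).

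Irs1 (ENSMUSG00000055980, chr1:82210822-82269338, minus strand), the adaptor gene downstream of the insulin and IGF-1 receptors, differed between the deposited sets in some groups. WT libraries, all of the first set, read 58.5, 93.4, 80.3, 64.6 and 51.4 CPM. NT ran from 19.2 over a median of 29.1 to 125.5, with the 6 first-set NT mice at 19.2 to 47.3 CPM and the second-set NT 7 and NT 8 at 125.5 and 54.5. Within the first set the NT mice therefore all lay below WT. At 5.3 mg/kg the second-set mice were likewise the higher ones, since first-set mice A and B read 41.5 and 27.7 CPM and second-set mice C and D 86.8 and 109. Free L9 read 13.9 and 31.3 CPM in the first set and 64.6 in the second. At 21.2 mg/kg there was no such order, as first-set mice A and B read 28.7 and 72.9 CPM and second-set mouse C 66.5.

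Over all libraries the log2 fold change of Irs1 in NT against WT was -0.68 ± 0.44 (adjusted p = 0.384). In the first set alone, where 5.45% of the genes tested were called, it was -1.31 (adjusted p = 0.00877), and Irs1 joined Igfbp5 as the second of the 10 genes called. With the deposited set as a covariate it was -1.24 (adjusted p = 0.0086, beside 5.31% of genes called). Leaving out those 5 libraries whose mitochondrial genes are all at 0, a model added after the data had been seen, gave -1.31 (adjusted p = 0.0232, beside 4.8% of genes called). No WT library is in the second set, so the NT mice of the second set cannot be compared with WT within their set.

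The 42.4 mg/kg mice read 15.1, 15.5 and 14.2 CPM for Irs1, below every NT library and every library of the series except free L9 A at 13.9. The fitted value was -1.54 ± 0.58 on the log2 scale against NT (adjusted p = 0.214) and -2.22 ± 0.63, 4.66-fold lower, against WT (adjusted p = 0.0267). Against the first-set NT mice alone it was -0.92 (adjusted p = 0.228), and -0.37 with the style of library name as a covariate (adjusted p = 0.903). DESeq2 over all libraries gave -1.56 against NT (adjusted p = 0.0323). The call against WT held in 4 of 8 fits that left out 1 mouse, and it ended without each of the 3 mice at 42.4 mg/kg in turn and without WT 2, although the value stayed between -2.31 and -2.09.

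For Irs1, Brush gave 72.3 and 24.6 CPM and pacDNA-Scr 32.0 and 32.4, all in the first set. All 4 values lay within the NT range, and Brush A also within that of WT. Neither these groups nor the 21.2 mg/kg group differed from NT at an adjusted p under 0.05.

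Irs2, the adaptor gene that FOXO factors are known to induce, was nearly separated between WT and NT and scattered among treated mice. WT libraries read 35.8, 28.7, 27.3, 25.2 and 23.9 CPM, and NT ran from 11.8 over a median of 16.7 to 25.3. Only NT 6 lay above the lowest WT mice. NT stood at -0.71 ± 0.45 against WT on the log2 scale (adjusted p = 0.383), with a spread that the fit shares over all groups. In a fit of the WT and NT mice 1 to 4 alone it was -0.83 (adjusted p = 0.0213, beside 4.92% of genes called), and -0.84 with the replicate number as a block (adjusted p = 0.0109, beside 4.57%). These 2 fits leave out NT 6, other NT mice, the unnumbered WT library and all treated groups, so more than the spread differs. Irs2 was called in 0 of 13 fits over all groups that left out 1 WT or NT mouse.

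A single mouse carried the Irs2 level in 3 groups. At 5.3 mg/kg mouse D read 123 CPM beside 24.4, 13.2 and 9.82, in pacDNA-Scr mouse B read 101 beside 24.8, and at 42.4 mg/kg mouse B read 49.2 beside 13.8 and 19.1. Against NT the 5.3 mg/kg group stood at 1.30 ± 0.48 on the log2 scale, and at -0.13 without mouse D. It was 1.87 ± 0.57 for pacDNA-Scr and 0.53 without mouse B, and 0.66 ± 0.53 at 42.4 mg/kg and -0.07 without mouse B. None of these values passed an adjusted p of 0.05 (0.9995, 1 and 0.591 in this order). The same 3 mice were the highest of their groups for Ddit4, a stress-induced inhibitor of mTORC1, at 71.4, 105 and 698 CPM.

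**Figure D4:**
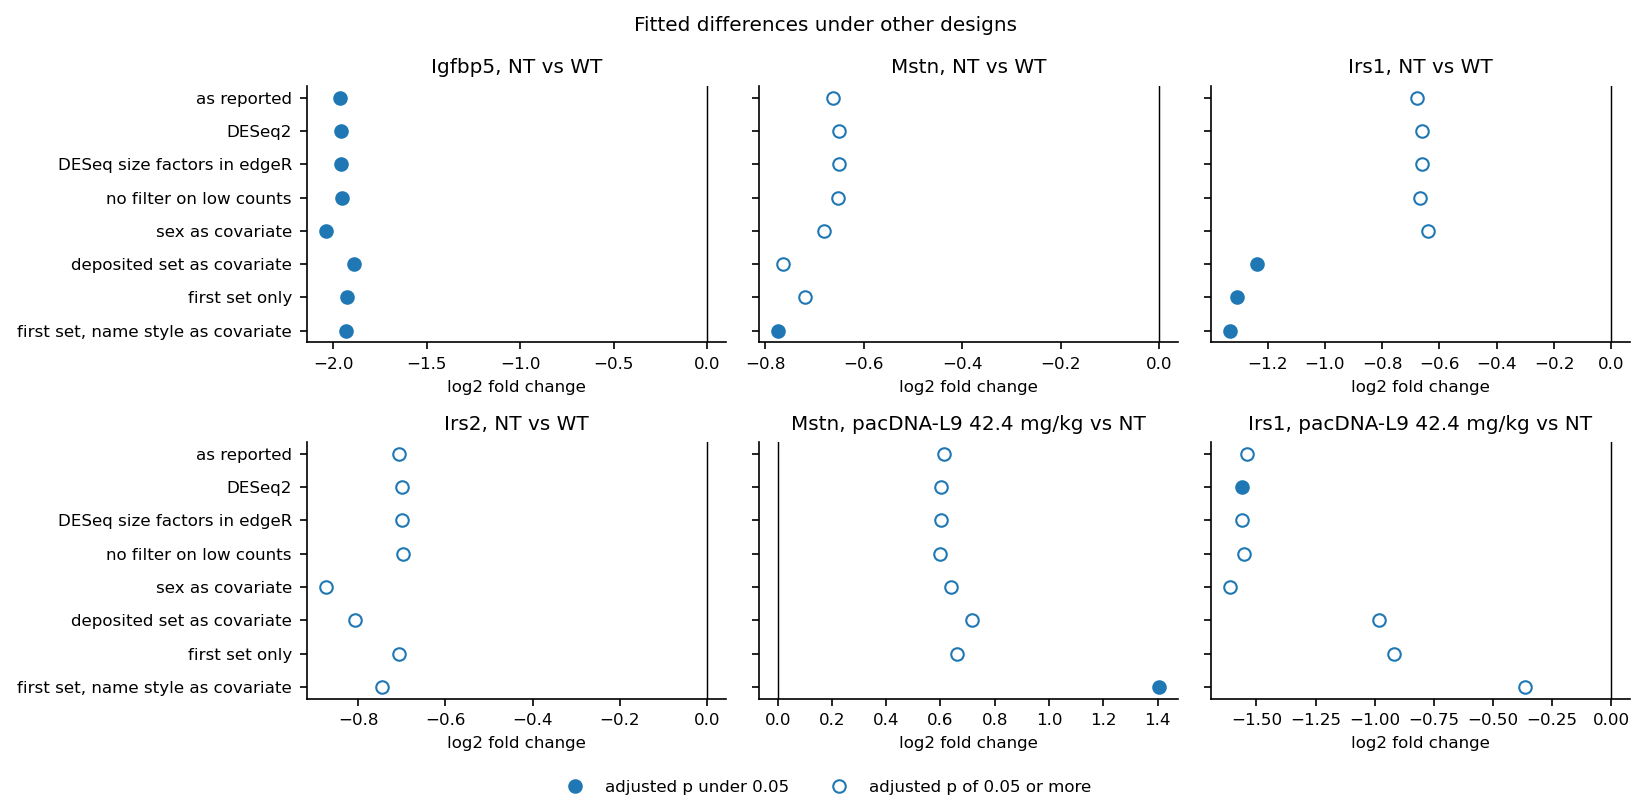
Fitted log2 fold changes of Igfbp5, Mstn, Irs1 and Irs2 in NT vs WT and of Mstn and Irs1 in pacDNA-L9 42.4 mg/kg vs NT under 8 designs, filled where the adjusted p was under 0.05. Igfbp5 is called in all 8, Irs1 in NT vs WT moves from -0.68 to values between -1.33 and -1.24 once the deposited set is held apart, and Mstn is called only with the style of library name as a covariate.

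Beyond the 10 genes, 86 of 87 further genes of the pathway in 6 lists could be tested (Wfikkn1 was too low). Between NT and WT, 7 of the 86 were called, 3 higher and 4 lower, beside the 4.97% of all genes given above. At 42.4 mg/kg against NT 8 were called, all higher, beside 2.57% of all genes (336 higher and 114 lower). Against WT at that dose 14 were called, 9 higher and 5 lower, beside 7.9% (894 higher and 490 lower). In the 5 other comparisons with NT edgeR called 0 of the 86. At most 7 of them, with free L9, had an unadjusted p under 0.05, beside 1641 of all 17518 genes in that comparison. The median log2 fold change in NT against WT ranged over the lists from -0.40 for the IGF-binding protein list to -0.02 for PI3K, AKT and mTOR, beside 0.03 over all genes. At 42.4 mg/kg against NT it ranged from -0.13 for growth hormone signalling to 0.41 for the IGF-binding protein list, beside -0.06 over all genes.

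Among myostatin and activin ligands, processing factors and antagonists, 1 of 14 was called between NT and WT. This was Tgfb3, a TGF-beta ligand gene, at 29.6 ± 3.75 CPM in WT (SD, n = 5) and 47.9 ± 9.50 in NT (n = 8), a log2 fold change of 0.69 ± 0.17 (adjusted p = 0.0119). Of 12 activin and TGF-beta receptors and SMADs, 1 was called, Acvr2a, the sister receptor of Acvr2b for myostatin and activins. Acvr2a was lower in NT, at 18.6 ± 3.70 CPM against 40.3 ± 14.0 in WT, a log2 fold change of -1.11 ± 0.22 (adjusted p = 0.00188), and at 42.4 mg/kg it was at 15.0 ± 3.37 CPM. Acvr2a thus differed between NT and WT with no overlap of the libraries, while the value for Acvr2b was -0.19 ± 0.37, and the difference between these values was not tested.

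Of 17 genes for IGF-binding proteins, proteases, receptors and receptor adaptors, 2 were called between NT and WT. Grb10, an adaptor that dampens signalling of the insulin and IGF-1 receptors, was 3.32-fold lower in NT, at 22.7 ± 7.79 CPM against 75.5 ± 10.9 in WT, a log2 fold change of -1.73 ± 0.21 (adjusted p = 4.47e-06). It was called in all 23 alternatives, and at 42.4 mg/kg it was at 31.1 ± 4.75 CPM. Grb14, a relative of Grb10, was higher in NT, with a log2 fold change of 0.56 ± 0.16 (adjusted p = 0.0353), and this call ended in 11 alternatives.

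Among 6 genes of growth hormone signalling, which drives IGF-1 production, 2 were called between NT and WT. Jak2, the kinase of the growth hormone receptor, was higher in NT (72.4 ± 14.6 against 39.9 ± 3.99 CPM, log2 fold change 0.86 ± 0.15, adjusted p = 0.000758). Ghr, the receptor gene, was lower (135 ± 18.6 against 192 ± 42.2 CPM, log2 fold change -0.51 ± 0.14, adjusted p = 0.0269), a call that ended in 11 alternatives. Of 24 genes of PI3K, AKT and mTOR signalling only Rictor was called, at -0.63 ± 0.18 (adjusted p = 0.0398), and this call ended in 17 alternatives. In the BMP arm 0 of 13 were called by edgeR between NT and WT.

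At 42.4 mg/kg against NT, 5 of the 24 genes of PI3K, AKT and mTOR signalling were called, all higher. Foxo1, a transcription factor that AKT restrains and that drives atrophy genes, read 57.8, 169 and 81.5 CPM, against 21.0 to 37.7 in NT. Its log2 fold change was 1.91 ± 0.28 (adjusted p = 0.000241), and it was called in every alternative run. Foxo3 rose by 1.04 ± 0.17 on the log2 scale, Pik3r1, the regulatory subunit of PI3K, by 1.29 ± 0.29, and Sesn1, a FOXO and p53 target that restrains mTORC1, by 1.41 ± 0.26. Ddit4 read 90.6, 698 and 199 CPM at 42.4 mg/kg against 6.51 to 48.8 in NT, a log2 fold change of 4.39 ± 0.91 (adjusted p = 0.00723).

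Outside this list, Htra1, a protease that cleaves IGF-binding proteins, rose by 1.47 ± 0.29 at 42.4 mg/kg against NT. Tgfbr3, the betaglycan co-receptor gene, rose by 1.02 ± 0.20, and Smad1, of the BMP arm, by 0.53 ± 0.14. The Smad1 call, with libraries that overlapped NT, ended in 13 of 19 alternatives. Mouse B was the highest of the 3 for 7 of the 8 genes, Smad1 excepted. Without it Foxo1 was still called (1.35, adjusted p = 0.0411), and the other 7 were not, at adjusted p-values of 0.112 to 0.477. Their log2 fold changes were then 3.20 for Ddit4, 0.83 for Pik3r1, 0.76 for Htra1, 0.73 for Tgfbr3, 0.58 for Sesn1, 0.56 for Foxo3 and 0.48 for Smad1. Over all genes tested, 63 were called without that mouse, against 450 with it. With the style of library name as a covariate in the first set, Foxo1, Foxo3, Htra1 and Tgfbr3 were called, at adjusted p-values of 0.0245 to 0.0467, and Pik3r1, Sesn1, Ddit4 and Smad1 were not.

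**Figure D5:**
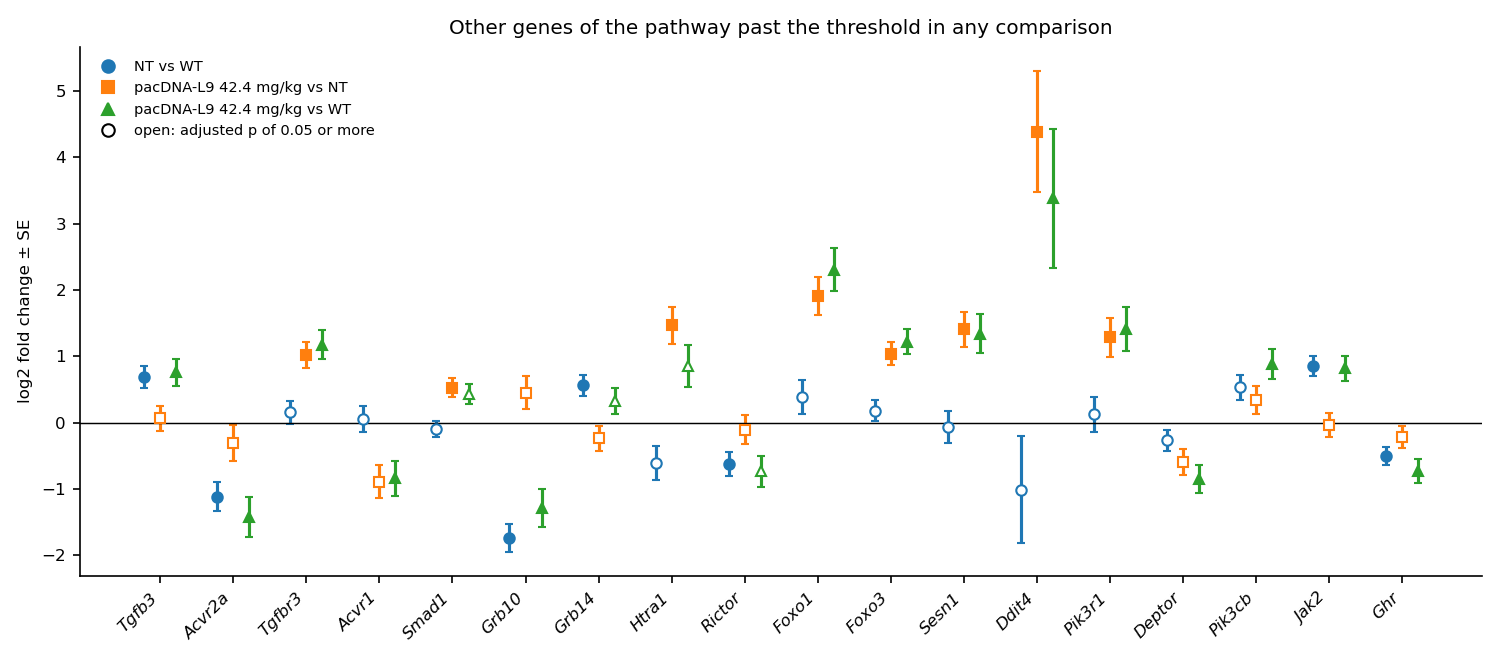
Fitted log2 fold changes with standard errors for the 18 other pathway genes called in any comparison, in NT vs WT (circles), pacDNA-L9 42.4 mg/kg vs NT (squares) and pacDNA-L9 42.4 mg/kg vs WT (triangles), filled where the adjusted p was under 0.05. Grb10 and Acvr2a lie lowest in NT vs WT, at -1.73 and -1.11, and Ddit4 lies highest at 42.4 mg/kg vs NT, at 4.39.

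Against WT, the genes called at 42.4 mg/kg were higher for Foxo1 (2.30), Pik3r1 (1.41), Sesn1 (1.34), Foxo3 (1.22), Tgfbr3 (1.18), Pik3cb (0.88), Jak2 (0.82) and Tgfb3 (0.76) on the log2 scale. They were lower for Acvr2a (-1.42), Grb10 (-1.28), Deptor, an inhibitor of mTOR (-0.85), Acvr1, a type I receptor gene (-0.84), and Ghr (-0.73). The Acvr1 call ended in 9 of 16 alternatives and held in 1 of 8 fits that left out 1 mouse. Without mouse B the Pik3r1, Sesn1, Pik3cb, Jak2, Tgfb3, Acvr1 and Ghr calls ended, with Sesn1 at 0.52. Without mouse A the Deptor and Ghr calls ended. The style of library name as a covariate in the first set ended the calls of Deptor (-0.52, adjusted p = 0.246) and Tgfb3 (adjusted p = 0.125). It also ended those of Ghr (adjusted p = 0.0857) and Pik3r1 (adjusted p = 0.0719). The remaining higher gene was Ddit4 (3.38, adjusted p = 0.0492), named after its values were seen. WT 1 read 121 CPM for Ddit4, so the libraries overlapped, and the call ended in 11 of 16 alternatives, with values of 5.14 without WT 1 and 2.20 without mouse B. Acvr2a, Grb10, Ghr, Jak2 and Tgfb3 were thus called in the same direction against WT in NT and at 42.4 mg/kg, and these comparisons share the WT libraries. For Acvr2a, Grb10, Foxo1, Foxo3 and Tgfbr3 the call against WT held in every alternative run.

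Among all genes tested, those whose log2 CPM followed Mstn most closely over the 24 first-set libraries were Jak1 (Pearson r = 0.84), Homer1 (0.81) and Skic3 (0.80). These values describe libraries that share depth and processing and carry no test. Among the other 9 genes of the axis the highest r with Mstn were 0.42 for Irs1 and 0.41 for Fst, and the lowest was -0.26 for Inhba.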

How the data were processed

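The authors trimmed and mapped the reads of poly(A)-enriched quadriceps RNA to the mouse genome GRCm39 with HISAT2 2.0.5, as the submitters' processing notes name it, and deposited raw counts per gene. The counting options, annotation release and strand setting are not given in the sources used here. Each column was matched to its sample by its name, and the fifth WT column, which the labels spell differently, was used as a WT library without a number. Sex was read from Xist and Y-linked genes.

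Counts were fitted with edgeR 4.0.16 in R 4.3.3 (filterByExpr by condition, TMM, robust quasi-likelihood F-test, 1 coefficient for each of 8 conditions, all 30 libraries, no covariate). P-values were adjusted by Benjamini-Hochberg over 17518 genes with a threshold of 0.05 and no fold limit. An SE is the size of the log2 fold change divided by the square root of F. The model was tested on simulated counts, drawn without differences by deposited set, name style or sex, so that test does not cover them. Alternatives were DESeq2 1.42.0, other size factors, no filter, covariates for deposited set, name style or sex, the first set only, a replicate block, and each mouse left out. Locations and CTG runs are from GENCODE vM39 on GRCm39, in which 56017 gene IDs matched. All 10 genes are named, and of the pathway lists those called in any comparison, at most the 6 with the smallest adjusted p per list and comparison, and Ddit4 against WT besides. The 10 genes and the lists were chosen with earlier results of these data known. Replicates are separate mice.

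WT and NT share the numbers 1 to 4 among matched libraries. Same-numbered pairs correlated at r = 0.001 to 0.1857, 2 of 4 over 0.1, so the numbers were not taken to pair mice.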

Additional observations from a re-analysis of the deposited data

Results flagged for a closer look

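In 4 of the 30 groups of 4 or more mice examined (10 genes in WT, NT and pacDNA-L9 5.3 mg/kg), 1 mouse stood far from the rest. Chance alone would mark about 1 in 20 groups only if values were normally distributed and groups independent. The 10 genes were read in the same libraries, so the 4 flagged groups were not weighed against that rate. Irs2 in pacDNA-L9 5.3 mg/kg D was at 123 CPM, with the next mouse at 24.4. Irs1 in NT 7 was at 125.5 CPM, with the next at 54.5, and both are second-set libraries. Igf1 in WT 1 was at 36.4 CPM, with the next at 19.1. Acvr2b in NT 2 was at 12.9 CPM, with the next at 7.85.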

How the results depend on the processing

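Igfbp5 was the only 1 of the 10 genes called in NT against WT under DESeq2, other size factors, no filter or sex as a covariate. The number called was 2 in the first set only, with the deposited set as covariate and without the 5 libraries with no mitochondrial counts (Irs1 added each time), beside 863, 930 and 768 of all genes, and 3 with the first set and name style as covariate (Mstn and Irs1 added), beside 910. In the WT and NT mice 1 to 4 it was 3 with the replicate block and 3 without it (Igfbp5, Irs1 and Irs2 in both), and over all genes 631 with the block and 680 without, so the replicate block changed none of the 10 calls. Of 8 libraries, 4 correlated best with their own number. Mice 1 to 5 were planned, but the fifth WT column carries no matched number.

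For 42.4 mg/kg against NT, 1 of the 10 was called by DESeq2 (Irs1) and 1 with the first set and name style as covariate (Mstn). Against WT, 1 was called without the filter on low counts. Leaving out single mice gave 1 to 1 genes for NT against WT, 1 to 3 for 42.4 mg/kg against WT (1 without WT 2 or any mouse at 42.4 mg/kg, 2 without WT 1) and 0 to 0 for every other comparison. Of 1520 values of the 10 genes under alternatives, 120 changed sign, all uncalled, and 0 called values reversed. Counts over all genes moved more. DESeq2 called 1972 for NT against WT, 16 at 21.2 mg/kg, 1366 at 42.4 mg/kg, 44 for free L9, and 2086 at 42.4 mg/kg against WT. The name style covariate within the first set gave 110 at 42.4 mg/kg, 898 against WT, 2 at 21.2 mg/kg and 0 for free L9, where the first set without it gave 428, 1711, 2 and 354. For free L9 the set covariate gave 165, sex 10, no filter 14, and removal of the 5 libraries 397. At 21.2 mg/kg the first set only and the removal of the 5 libraries each gave 2, and sex as a covariate gave 1 for Brush. Single mice left out gave 63 to 448 at 42.4 mg/kg against NT, 702 to 1384 against WT, 13 to 314 for free L9, 2 to 10 at 21.2 mg/kg and 636 to 861 for NT against WT. The count at 42.4 mg/kg was 63 without mouse B, and 702 against WT. For free L9 it was 242, 38 and 314 without A, B and C, and 13 to 16 without single NT mice. At 21.2 mg/kg it was 2 without mouse B or C, and 5 without NT 1, 2, 4, 5 or 8. Low counts limit Igf2 and Inhba, and 2 mice limit Brush and pacDNA-Scr.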
